A study of Homo sapiens with 6 samples.

Results

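This account covers 42 genes of the Wnt pathway, named by symbol: receptors and co-receptors, ligands, inhibitors, the cytosolic proteins that relay or stop the signal, and nuclear factors, with 12 genes among them that are known feedback targets of beta-catenin. They were measured in AGS and HGC-27, established human gastric cancer cell lines, on 6 arrays with 1 array for each of 3 conditions in each line. Parental cells were untransfected. The GFP control had been nucleofected with 1.5 µg of a GFP plasmid and 3 µg of empty vector, and the MIST1 cells with the same GFP plasmid and 3 µg of a MIST1 plasmid. Both transfected populations were sorted on GFP fluorescence 24 h after transfection and harvested after another 24 h in culture. No label says that the parental cells were sorted, so transfection, the empty vector, sorting and handling cannot be told apart in any comparison with them. MIST1 is a basic helix-loop-helix transcription factor of mature secretory cells, and the series asked which genes it raises.

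Where several single-gene probe sets read a gene, the brightest by its mean over all arrays was used. Of the 42 genes, 40 had a single-gene probe set and 39 were tested, out of 19775 and 13738 genes in all. TCF7 had none in the platform annotation, and the probe sets of FZD8 are shared there with a microRNA gene. TCF7L1, a TCF factor that mostly represses, was on the array but too dim to test, at 14.6, 16.9 and 33.9 in the parental, GFP control and MIST1 arrays of AGS and 23.2, 30.0 and 29.8 in those of HGC-27. Values are deposited intensities on a linear scale. Log2 differences were taken after raising every value under 17.6 to that floor, and a change that starts or ends at the floor is understated. Members that passed the filter only through the arrays where they were high had to differ, so counts over the 39 describe these genes and are read only beside the same share over all genes tested.

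Wnt ligands are secreted lipid-modified proteins that bind Frizzled receptors together with LRP5 or LRP6. In the canonical branch this stops the destruction complex of APC, AXIN, GSK3B and casein kinase from marking beta-catenin for degradation, and beta-catenin then acts with TCF and LEF factors in the nucleus. Several of its targets damp the signal: AXIN2 rebuilds the destruction complex, RNF43 and ZNRF3 remove Frizzled from the surface, NKD1 and NKD2 bind Dishevelled, DKK1 blocks LRP5 and LRP6, NOTUM removes the lipid from Wnt proteins, and APCDD1 binds Wnt and LRP proteins at the membrane. LGR4 and LGR5 are receptors of R-spondins, which protect Frizzled from RNF43 and ZNRF3. WNT5A, WNT11, ROR1 and ROR2 are best known for branches of the pathway that do not use beta-catenin. In the stomach and intestine the canonical branch keeps the stem cells at the gland base, which express LGR5 and AXIN2.

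The 2 lines carried different cell type markers. Of the 5 epithelial markers checked, the intermediate filament gene KRT18 read 14741 to 16978 in AGS and 21.9 to 35.8 in HGC-27, and the adhesion gene EPCAM 5681 to 7098 and 23.0 to 34.4. The 4 fibroblast markers summed to 722 to 1390 in AGS and to 16634 to 19220 in HGC-27, where COL3A1 read 7383 to 8943 and DCN 3244 to 4607. COL1A1 read 682 to 1314 in AGS and 5620 to 5944 in HGC-27, and PDGFRB 12.2 to 24.4 and 62.7 to 79.0. Of the 2 mesenchymal markers, VIM read 250 to 298 in AGS and 12532 to 13731 in HGC-27. The other, CDH2, did not separate the lines, at 47.0 to 57.5 in AGS and 44.4 to 57.6 in HGC-27. In HGC-27 the epithelial genes EPCAM, KRT18 and KRT19 were at or near the floor, and KRT8 still read 1350 to 1562. CDH1 read 22.1, 89.8 and 75.4 in the parental, GFP control and MIST1 arrays of HGC-27, and 221 to 291 in AGS. The leukocyte markers on the array summed to 62.4 to 107 in AGS and 104 to 111 in HGC-27, and the endothelial markers to 121 to 144 and 120 to 137. The probe set for BHLHA15, which encodes MIST1, did not separate the MIST1 arrays from the controls (72.5 against 75.8 in the GFP control of AGS, 58.7 against 61.9 in HGC-27), and the labels do not say whether it can read the construct.

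The widest differences among the Wnt genes lay between the lines. Comparisons used limma on all 6 arrays, two-sided, with p-values adjusted by Benjamini-Hochberg over the 13738 genes and a threshold of 0.05. For the lines, the 3 conditions stand in for replicates, so separate cultures of a line enter none of these p-values. In bulk samples, fewer cells that express a gene and less RNA per cell cannot be told apart. HGC-27 was higher than AGS for 10 of the 39 members and lower for 17, where 27.3% of all genes were higher and 33.2% lower. The 3 HGC-27 arrays lay above the 3 AGS arrays for 12 members and below them for 21, against 27.4% and 34.3% of all genes. A difference of at least 4 on the log2 scale was seen upward for 6 members, where 2.59% of all genes reached it, and downward for 2, where 2.19% did. Apart from WNT5A, the members at that size all passed the filter through 1 line only, as named below, so these 2 counts are a description. The median size of the difference was 1.03 over the members and 0.51 over all genes, with such genes included in both. Of the 39 members, 9 passed the filter through 1 line only, with no array of the other above its limit: LEF1, NKD2, APCDD1, DKK3, FZD1, WNT11 and ROR2 through HGC-27 and LGR5 and RNF43 through AGS. Their line differences were set in part by that filter and are given as values with no test. Of the other 30 members 4 were higher in HGC-27 and 15 lower, where 23.5% and 32.4% of the 11972 genes with an array above that limit in each line were.

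**Figure D1:**
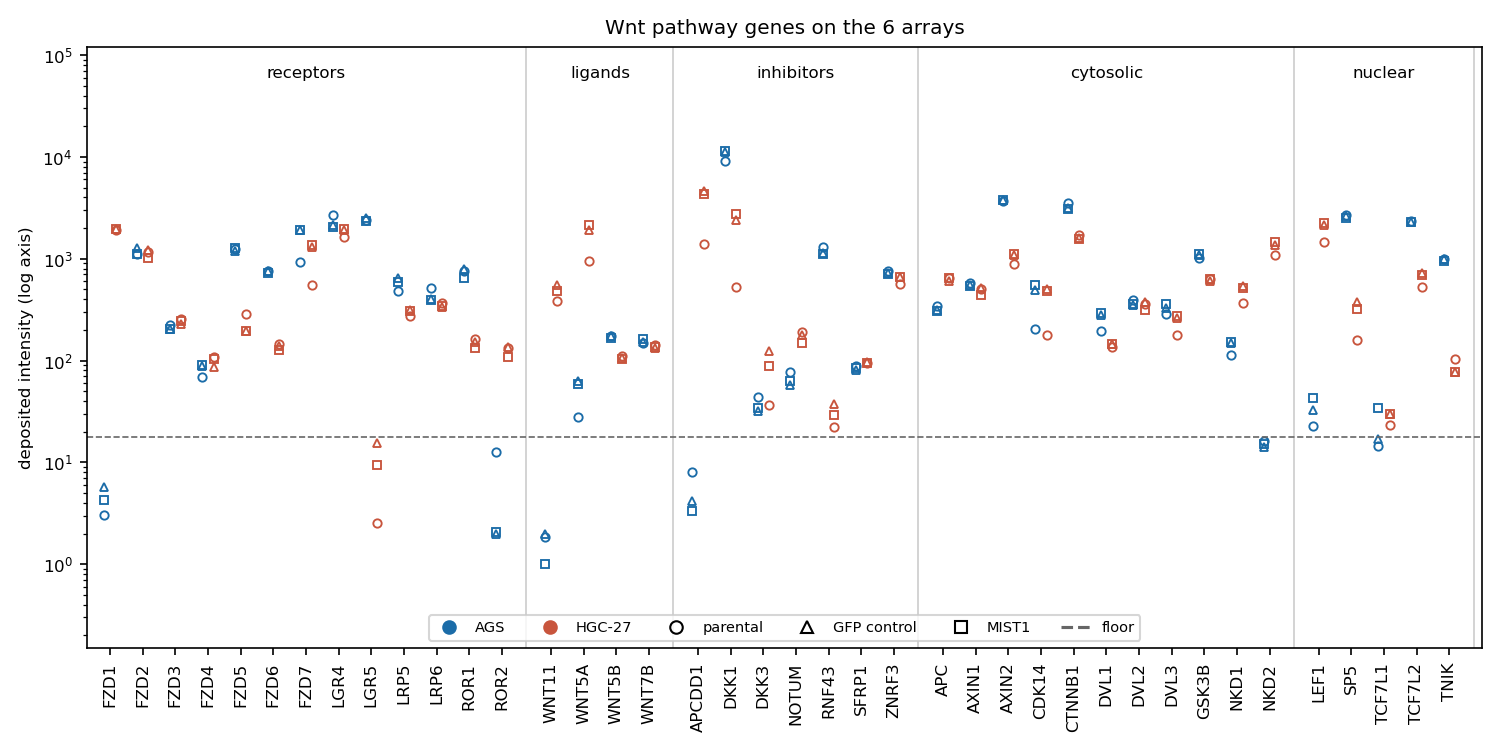
Deposited intensity of the 40 Wnt genes with a single-gene probe set, on a log axis, with 1 point per array. Blue is AGS and red is HGC-27, circles are parental, triangles GFP control and squares MIST1 arrays, and the dashed line is the floor of 17.6. The 3 AGS points of FZD1, ROR2, WNT11, APCDD1 and NKD2 lie under the floor while the HGC-27 points lie above 100, and LGR5 shows the opposite.

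Among the receptors, FZD1 and LGR5 divided the lines. FZD1, a Frizzled of the same subgroup as FZD2 and FZD7, read 3.01, 5.67 and 4.26 in the parental, GFP control and MIST1 arrays of AGS and 1910, 1943 and 1943 in those of HGC-27. LGR5, the R-spondin receptor that marks stem cells, read 2411, 2500 and 2358 in AGS against 2.51, 15.5 and 9.39 in HGC-27. In each case every array of the low line was under the floor, so FZD1 was at least 110-fold higher and LGR5 at least 138-fold lower in HGC-27 (n = 3 arrays per line). Its relative LGR4 was present in both lines, at 2659, 2141 and 2047 in AGS against 1632, 1921 and 1961 in HGC-27, and the line difference of -0.31 (SE 0.13, adjusted p = 0.0826) did not pass.

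Of the other Frizzled genes, FZD5, FZD6 and FZD7 were lower in HGC-27. FZD5, a main Frizzled of the gut epithelium, read 1237, 1199 and 1266 in AGS against 285, 194 and 197 in HGC-27. FZD6 read 763, 750 and 728 in AGS against 144, 140 and 128 in HGC-27. The groups did not overlap for either gene, and the differences were -2.48 (SE 0.14) and -2.45 (SE 0.11) on the log2 scale. FZD7 was lower, with a difference of -0.60 (SE 0.09, adjusted p = 0.00149), with overlapping arrays, and the call was lost with no factor for condition (adjusted p = 0.252 in limma). FZD2, FZD3 and FZD4 differed by -0.034, 0.21 and 0.28 and did not pass.

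The ROR receptors, tyrosine kinase-like receptors of WNT5A, went opposite ways. ROR1 read 750, 797 and 651 in AGS against 161, 152 and 132 in HGC-27, a difference of -2.30 (SE 0.11). ROR2 read 12.6, 1.98 and 2.06 in AGS, all under the floor, and 134, 136 and 108 in HGC-27, at least 7.13-fold higher. The co-receptor LRP5 read 481, 651 and 595 in AGS against 272, 314 and 303 in HGC-27, a difference of -0.95 (SE 0.11), while LRP6 differed by -0.30 (SE 0.12) and did not pass. Of the 13 receptors tested, 2 were higher in HGC-27, 6 were lower and 5 did not pass, a share of calls near the 60.4% over all genes. The 2 higher, FZD1 and ROR2, and LGR5 among the lower passed the filter through 1 line only, so these counts are a description.

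WNT5A and WNT11, ligands of the branches without beta-catenin, were HGC-27 genes. WNT5A read 27.6, 63.3 and 58.4 in AGS against 955, 1912 and 2144 in HGC-27, a difference of 5.08 (SE 0.12, adjusted p = 4.36e-07 by limma). WNT11 read 1.86, 1.99 and 1.0 in AGS against 387, 547 and 477 in HGC-27, at least 26.5-fold higher. WNT5B read 173, 173 and 166 in AGS against 111, 107 and 104 in HGC-27, a difference of -0.67 (SE 0.13). WNT7B, whose probe set type may also bind related transcripts, differed by -0.17 (SE 0.13) and did not pass. All AGS arrays lay below all HGC-27 arrays for WNT5A and WNT11, and above them for WNT5B.

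Of the 7 inhibitors 2 were higher in HGC-27, 2 were lower and 3 did not pass, also near the 60.4% of all genes called. APCDD1, RNF43 and DKK3 passed the filter through 1 line only, so these counts are a description. RNF43, the ubiquitin ligase that clears Frizzled, read 1316, 1134 and 1106 in AGS against 22.1, 37.0 and 29.1 in HGC-27, 41.1-fold lower by the mean of log2 values. Its paralog ZNRF3 read 752, 724 and 704 in AGS against 565, 658 and 662 in HGC-27, and the difference of -0.21 (SE 0.11) did not pass. DKK1 read 9009, 11065 and 11438 in AGS against 533, 2421 and 2762 in HGC-27, a difference of -2.77 (SE 0.37). Leaving out 1 array gave -3.14 to -2.12, smallest in size without a parental array. The largest value on any array was 19070, so DKK1 in AGS was near the top of the measured range.

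APCDD1 and NOTUM went the other way. APCDD1 read 8.02, 4.14 and 3.32 in AGS against 1390, 4631 and 4364 in HGC-27, at least 173-fold higher. That was the widest floored difference of the 39 members, but differences set by the floor are lower bounds and do not rank genes. NOTUM read 76.5, 58.0 and 63.2 in AGS against 190, 179 and 148 in HGC-27, higher by 1.39 (SE 0.15). DKK3, a Dickkopf relative that does not block LRP6 like DKK1, was dim and overlapped, and SFRP1, a secreted Frizzled decoy, read 80.9 to 96.9 over all 6 arrays. Neither passed.

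In the cytosol, the destruction complex and its target were expressed in both lines. CTNNB1, which encodes beta-catenin, read 3497, 3118 and 3056 in AGS against 1703, 1595 and 1558 in HGC-27, a difference of -0.99 (SE 0.07, adjusted p = 2.55e-05 by limma). APC read 347, 316 and 305 in AGS against 649, 606 and 642 in HGC-27, higher by 0.97 (SE 0.11). GSK3B was lower, with a difference of -0.78 (SE 0.10), at 1006, 1096 and 1116 in AGS against 637, 601 and 632 in HGC-27. AXIN1 differed by -0.20 (SE 0.11) and did not pass. Thus APC and GSK3B, both of the destruction complex, differed in opposite directions.

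Of the feedback genes in the cytosol, AXIN2 read 3659, 3790 and 3796 in AGS against 886, 1093 and 1103 in HGC-27, a difference of -1.87 (SE 0.08). NKD1 read 113, 148 and 153 in AGS against 371, 537 and 519 in HGC-27, higher by 1.78 (SE 0.12). NKD2 was under the floor on every AGS array, at 16.1, 14.2 and 15.2, and read 1098, 1376 and 1444 in HGC-27, at least 73.7-fold higher. No array of 1 line reached into the range of the other for these 3 genes. Of the Dishevelled genes, which relay the signal from Frizzled, DVL1 read 196, 282 and 293 in AGS against 135, 145 and 146 in HGC-27, a difference of -0.84 (SE 0.15). DVL3 was lower, with a difference of -0.46 (SE 0.13), at 286, 327 and 355 in AGS against 179, 262 and 271 in HGC-27, and DVL2 differed by -0.070. The DVL3 call was lost with no filter (adjusted p = 0.0596 in limma), with no factor for condition (0.0745) and without any one of the 4 transfected arrays (0.0604 to 0.076), and the mean of all its probe sets gave a difference of -1.22.

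The nuclear factors made a contrasting pair in LEF1 and TCF7L2. LEF1 read 22.5, 32.3 and 42.9 in AGS against 1465, 2132 and 2227 in HGC-27, 60.7-fold higher by the mean of log2 values. TCF7L2, the main TCF factor of the gut epithelium, read 2323, 2273 and 2287 in AGS against 529, 722 and 691 in HGC-27, a difference of -1.84 (SE 0.12). TNIK, a kinase that acts with TCF7L2, read 1001, 983 and 955 in AGS against 104, 76.5 and 78.0 in HGC-27, a difference of -3.52 (SE 0.13). SP5, a zinc finger repressor induced by beta-catenin, read 2688, 2625 and 2532 in AGS against 158, 375 and 322 in HGC-27, a difference of -3.29 (SE 0.24). Of the 4 nuclear members tested, TCF7L2, TNIK and SP5 passed the filter in both lines and LEF1 only through HGC-27. The line differences go along with the epithelial and fibroblast marker levels above, and the part of those cell states in them was not tested.

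**Figure D2:**
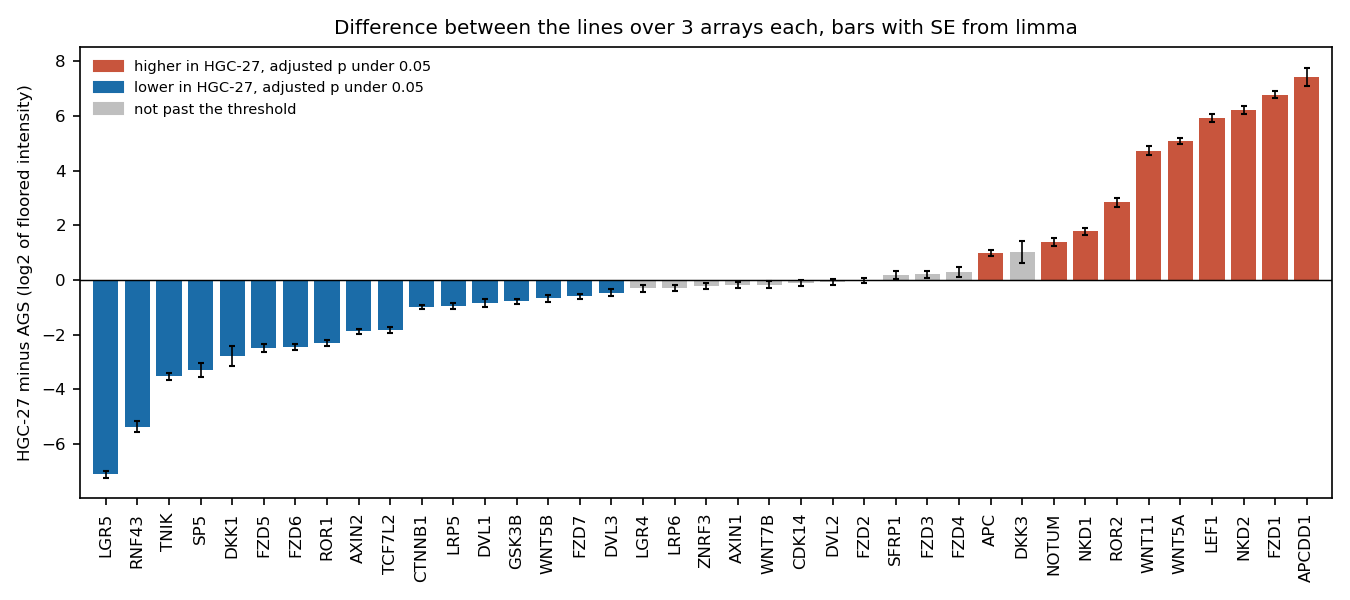
Log2 difference of floored intensity, HGC-27 minus AGS, for the 39 Wnt genes tested, in rising order, with bars for the limma estimate over 3 arrays per line and error bars of 1 SE. The 27 coloured bars passed an adjusted p of 0.05, from LGR5 at -7.10 to APCDD1 at 7.43, both among the genes that passed the filter through 1 line only.

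Of the 100 single-gene probe sets of the members, 46 others also passed the filter. The 37 of them that belong to genes called between the lines all had the same direction of line difference as the probe set used. Of the genes not called, CDK14 and FZD2 were read differently by a second probe set past the filter. That of CDK14 was at 8.68, 14.2 and 12.5 in AGS against 117, 136 and 139 in HGC-27. That of FZD2 was at 127, 294 and 310 in AGS against 70.8, 150 and 120 in HGC-27, a difference of -1.06. With the mean of all probe sets CDK14, FZD2 and LRP6 were called.

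The comparison of the GFP control with parental cells asks what transfection and sorting do without MIST1. FZD7 and CDK14 rose, and WNT5A showed a change of like size that did not pass. FZD7 was at 932, 1923 and 1899 on the parental, GFP control and MIST1 arrays of AGS, and at 550, 1296 and 1372 on those of HGC-27. CDK14, a kinase that works with a membrane-tethered cyclin on LRP6 in mitosis, read 204, 496 and 555 in AGS against 180, 507 and 484 in HGC-27. WNT5A read 27.6, 63.3 and 58.4 in AGS against 955, 1912 and 2144 in HGC-27. In each gene the parental array was the lowest of its line, and the GFP control and MIST1 arrays lay close together.

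In limma, CDK14 rose by 1.39 (SE 0.14, n = 2 lines, adjusted p = 0.0458) and FZD7 by 1.14 (SE 0.11, adjusted p = 0.0458). WNT5A differed by 1.10 (SE 0.15, adjusted p = 0.0528). These 2 calls, both upward, compare with 0.131% of all genes called upward, and 0 members were called downward. The calls were lost with no floor, with a higher floor, with no filter, without the variance trend, with the mean of all probe sets and without the block for cell line, and WNT5A passed after quantile normalization. Leaving out 1 array gave 2 to 17 calls, among them 17 when the parental array of AGS was the one removed, 10 for that of HGC-27, 4 for the GFP control of AGS, and 5 and 6 for the MIST1 arrays of AGS and HGC-27. The same 5 fits called 39.1%, 33.7%, 1.46%, 6.59% and 6.73% of all genes, in that order. Each p-value rests on 1 array per line and condition, and no label says that arrays come from separate experiments.

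Other probe sets of these genes differed in size. A second FZD7 probe set changed by 0.59 in AGS and 1.33 in HGC-27 from parental cells to the GFP control. A second WNT5A probe set was under the floor in AGS and changed by 0.87 in HGC-27, and the second CDK14 probe set, under the floor in AGS, changed by 0.22 in HGC-27.

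Counted by fold in the probe set used, 3 members, FZD7, CDK14 and WNT5A, were at least 1.5-fold higher in the GFP control in both lines, where 3.12% of all genes were. In AGS these were the only 3 members at that size upward, against 7.97% of all genes, and 0 members were lower by that much, against 6.01%. In HGC-27 there were 8 members upward, 20.5% of the 39 against 13.2% of all genes, and 0 downward against 5.28%. The other 5 in HGC-27 were DKK1, DKK3, APCDD1, SP5 and RNF43. Dimmer probe sets past the filter also reached 1.5-fold upward in both lines for FZD2 (1.22 in AGS, 1.08 in HGC-27) and FZD5 (0.73, 1.625). Others did so for CTNNB1 (0.69, 1.06) and NKD1 (0.95, 0.86), and a GSK3B probe set fell by that much (-0.75, -1.32). The probe sets used for these genes did not reach that size in both lines. With the mean of all probe sets the count in both lines was 4. The same comparison fitted to only its 4 arrays called 6 members, all upward, namely DKK1, FZD7, CDK14, WNT5A, APCDD1 and SP5, against 4.45% of all genes upward. That fit gave every gene a spread set by the trend alone, so its p-values are not used here.

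Some technical measures moved with the parental arrays as well. A probe set for the middle of 18S ribosomal RNA read 1142 in the parental array of AGS and 371 in that of HGC-27, and 46.8 to 52.7 on the 4 transfected arrays. In the same order, that for its start read 566, 141 and 37.2 to 109, and that for its end 1791, 1315 and 636 to 812. The ratio of end to start probe sets ran from 0.968 to 1.05 for ACTB and from 0.826 to 0.883 for GAPDH over all arrays. The 18 probe sets of the hybridization controls are added to every sample. Their mean exceeded its parental level in the GFP control by 0.12 in AGS and 0.24 in HGC-27 on the log2 scale. The median change of all genes was 0 in AGS and 0.13 in HGC-27, where changes should be read against that shift. With the arrays scaled to the median of the hybridization controls, a check chosen after seeing the data, CDK14, FZD7 and WNT5A were all called. That scaling hardly moved their changes, from 1.3864 to 1.3851 for CDK14 and from 1.1402 to 1.1389 for FZD7. It therefore did not take off the mean rise of the controls and cannot show what the calls are without it. The part of the ribosomal RNA signal in these changes was not tested.

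**Figure D3:**
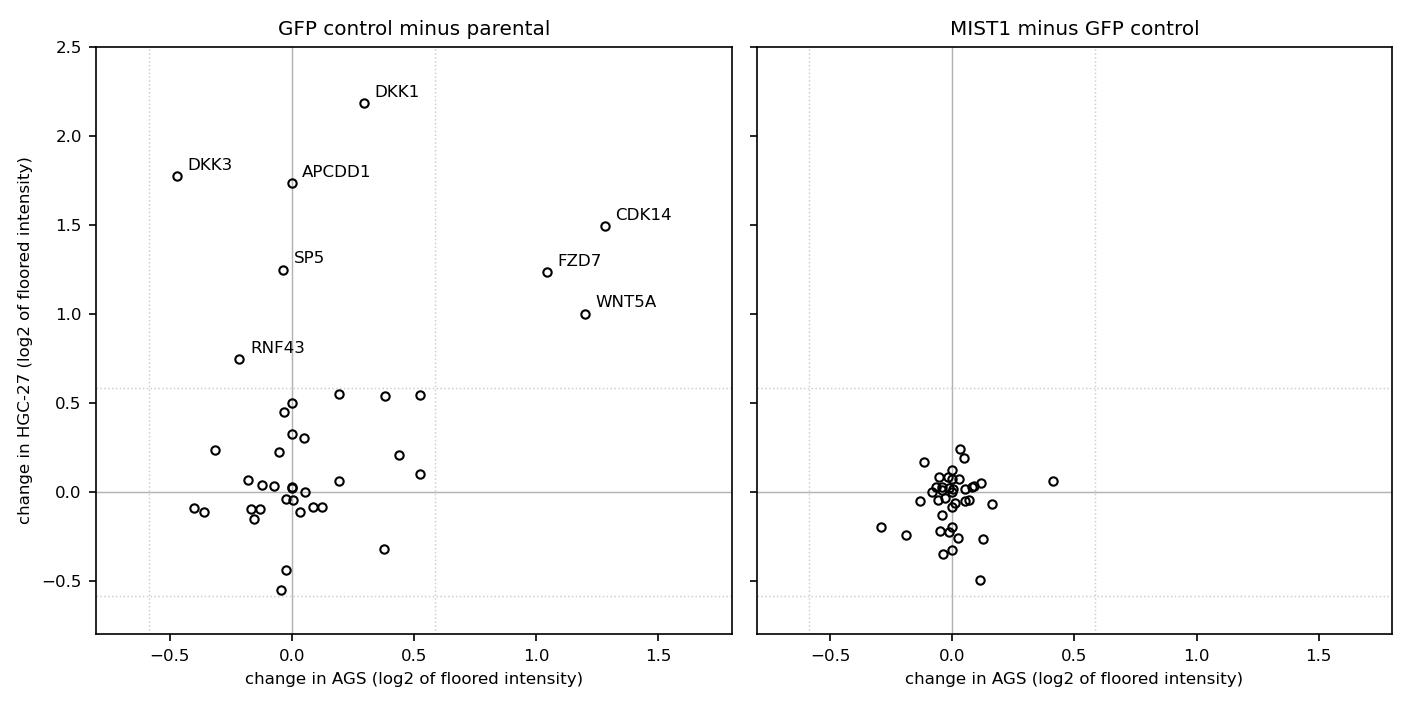
Log2 change of the 39 Wnt genes tested in AGS (horizontal) and HGC-27 (vertical), for GFP control minus parental on the left and MIST1 minus GFP control on the right, with 1 point per gene and dotted lines at 1.5-fold. Genes at 1.5-fold or more in a line are named: 8 on the left, with CDK14, FZD7 and WNT5A high in both lines, and 0 on the right.

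Of the 11 feedback targets of beta-catenin tested, a list chosen with earlier results of these data known, 9 had a positive and 1 a negative change from parental HGC-27 cells to the GFP control, with a median of 0.54. Over all genes 63.5% were higher and 35.0% lower there, with a median of 0.13. In AGS 5 were higher and 4 lower with a median of 0, beside 48.8% and 48.5% of all genes with a median of 0. NKD2 and APCDD1 lay under the floor on every AGS array, so their change of 0 and the median of the list there were set by the floor. LGR5 lay under it on every HGC-27 array. No test was made of the list, and of the 11 only DKK1, APCDD1 and SP5 passed the test of the line difference given next. LEF1 and NKD1 were higher in both lines, LEF1 by 0.52 in AGS and 0.54 in HGC-27 and NKD1 by 0.38 and 0.54, and neither passed in limma (adjusted p = 0.129 and 0.135). NOTUM was lower in both, by -0.40 and -0.09.

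A test of the difference itself, the interaction of line with transfection with the GFP control and MIST1 arrays of a line as 1 transfected group, called 6 members, all with the more positive change in HGC-27. This compares with 7.53% of all genes called in that direction and 2.62% in the other, where 0 members were. Among the 6, DKK3 passed the filter only through the transfected arrays of HGC-27, so the count is a description. DKK1 went from 533 in parental HGC-27 cells to 2421 and 2762 in the transfected ones, and from 9009 to 11065 and 11438 in AGS. The change in HGC-27 exceeded that in AGS by 1.96 (SE 0.12, limma adjusted p = 0.0031). The residual spread of this test comes only from the GFP control against the MIST1 array within a line. Its SE and p-values therefore hold no variation between parental arrays or cultures. In HGC-27 the GFP control was 4.54-fold above the parental array, and in AGS 1.23-fold.

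SP5 read 158, 375 and 322 in HGC-27 and 2688, 2625 and 2532 in AGS, a difference in change of 1.2 (SE 0.16, limma adjusted p = 0.018). APCDD1 read 1390, 4631 and 4364 in HGC-27, while its 3 AGS values lay under the floor, so its difference of 1.69 (SE 0.16, adjusted p = 0.00843) is the change of HGC-27 only. A second APCDD1 probe set read 100, 155 and 158 in HGC-27 and 68.2, 78.8 and 68.2 in AGS. The parental array was the lowest of HGC-27 in all 3 genes, and the AGS arrays of DKK1 and SP5 stayed within 1.27-fold of each other.

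The other 3 members called were smaller or dim. LGR4 was lower in the transfected arrays of AGS (2659, 2141 and 2047) and higher in those of HGC-27 (1632, 1921 and 1961), a difference of 0.60 (SE 0.09, limma adjusted p = 0.0223). A second LGR4 probe set past the filter hardly moved in AGS (192, 187 and 190) and rose in HGC-27 (103, 203 and 220). TCF7L2 read 529, 722 and 691 in HGC-27 and 2323, 2273 and 2287 in AGS, a difference of 0.44 (SE 0.10, adjusted p = 0.0497). All 6 other probe sets of TCF7L2 past the filter were higher in the GFP control of HGC-27 and lower in that of AGS. DKK3 read 36.5, 125 and 88.6 in HGC-27 and 43.9, 31.7 and 34.3 in AGS, a difference of 1.94 (SE 0.35). DKK3 passed the filter only through the transfected arrays of HGC-27, so no p is given for it, and its 5 other probe sets did not pass the filter.

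AXIN2 did not pass in this test, with a difference of 0.26 (SE 0.09, adjusted p = 0.102). Its 3 other probe sets changed by 0.69 to 1.24 in HGC-27 and by 0.23 to 0.43 in AGS, more than the 0.30 and 0.051 of the brighter probe set used. RNF43 gave 0.80 (SE 0.24, adjusted p = 0.0782), from near the floor in HGC-27. The test rests on 1 parental array per line and 2 residual degrees of freedom. Leaving out any one of the 4 transfected arrays left 0 members and 0 of all 13738 genes called, with differences of 1.86 to 2.05 for DKK1 and 1.09 to 1.31 for SP5.

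**Figure D4:**
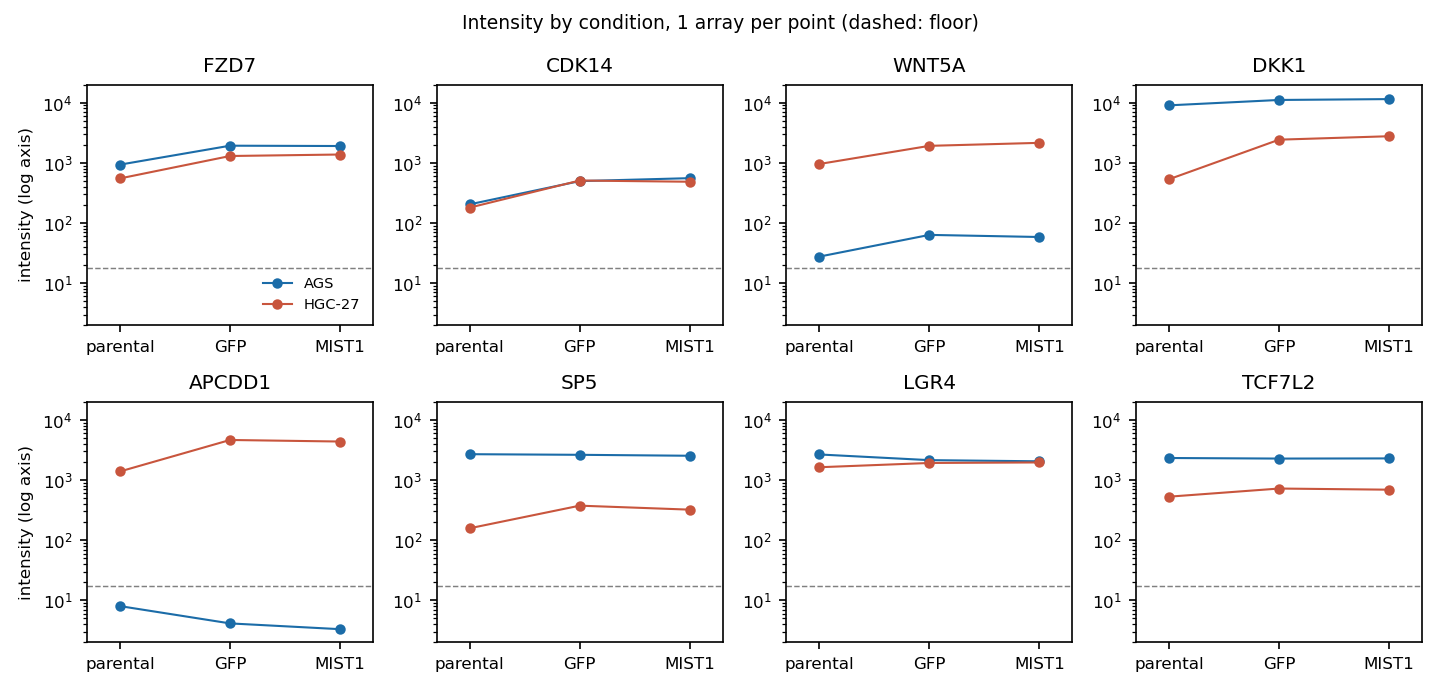
Deposited intensity on a log axis by condition for 8 Wnt genes, 1 array per point, AGS in blue and HGC-27 in red, with the floor of 17.6 dashed. FZD7, CDK14 and WNT5A step up from parental cells in both lines, DKK1, APCDD1 and SP5 mainly in HGC-27, and LGR4 moves in opposite directions.

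SP5 and DKK1 are known targets of beta-catenin and TCF factors. A form of the TCF motif can be looked for in the promoters of the 3 genes with the clearest HGC-27 change, which are shown. They are the 250 bases before the annotated start in RefSeq (GRCh38.p14, plus strand), at chr2:170715087-170715336 for SP5, chr10:52314031-52314280 for DKK1 and chr18:10454385-10454634 for APCDD1. Capitals mark the exact motif form CTTTGAT only.
SP5: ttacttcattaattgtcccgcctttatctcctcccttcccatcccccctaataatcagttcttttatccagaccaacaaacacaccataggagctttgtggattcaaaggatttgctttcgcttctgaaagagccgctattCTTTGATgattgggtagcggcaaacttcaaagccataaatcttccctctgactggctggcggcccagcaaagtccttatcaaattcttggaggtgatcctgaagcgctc
DKK1: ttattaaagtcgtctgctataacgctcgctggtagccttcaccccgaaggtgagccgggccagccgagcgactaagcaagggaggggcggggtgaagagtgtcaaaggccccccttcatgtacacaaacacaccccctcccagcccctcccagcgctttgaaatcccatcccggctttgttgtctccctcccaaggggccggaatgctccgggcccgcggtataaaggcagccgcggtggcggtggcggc
APCDD1: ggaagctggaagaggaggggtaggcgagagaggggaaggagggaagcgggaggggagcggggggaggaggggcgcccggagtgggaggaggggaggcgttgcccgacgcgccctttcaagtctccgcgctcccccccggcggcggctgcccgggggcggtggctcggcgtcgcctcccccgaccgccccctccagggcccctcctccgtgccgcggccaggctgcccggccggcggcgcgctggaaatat

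The motif was searched as CTTTGAT and its reverse complement ATCAAAG in windows of 300 bases, 250 before and 50 after each start. SP5 held it 109 to 103 bases before its start, on the strand of the gene, and it was the 1 window of 37 for the 28 members with a RefSeq window that did. Over all 35116 windows 2.62% held it. The match is a description of these letters. Near forms were not searched or marked, such as CTTTGAA in the DKK1 stretch and its reverse complement TTCAAAG in the SP5 stretch. The windows of DKK1 and APCDD1 without CTTTGAT therefore say nothing about the factor. The GC content of the printed stretches was 45.6% for SP5, 62.8% for DKK1 and 77.2% for APCDD1.

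MIST1 against the GFP control is the question of the series, and no Wnt gene was called there. In limma over 6 arrays 0 of the 39 members passed, and 0% of all genes did. At an unadjusted p under 0.05 there were 0 members, against 1.32% of all genes. In the fit of only the 4 arrays compared, 0 members and 0.451% of all genes passed, and 4 members had an unadjusted p under 0.05, a share of 10.3% beside 12.7% of all genes. By size, 0 members differed by 1.5-fold in AGS, where 1.83% of all genes did, and 0 in HGC-27, where 2.44% did. The 6-array fit shares its spread with the parental arrays, so its 0 does not show that values did not differ.

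The 4 members with the lowest p in the 4-array fit were FZD2, DKK1, ROR1 and LEF1. FZD2, a receptor used by WNT5A among others, went from 1264 to 1108 between the GFP control and MIST1 arrays of AGS and from 1212 to 1022 between those of HGC-27, a difference of -0.22 (SE 0.06, limma adjusted p = 0.172). ROR1 went from 797 to 651 on the AGS arrays and from 152 to 132 on the HGC-27 arrays, a difference of -0.24 (SE 0.09, adjusted p = 0.282). DKK1 went from 11065 to 11438 on the AGS arrays and from 2421 to 2762 on the HGC-27 arrays, a difference of 0.12 (SE 0.04, adjusted p = 0.262). LEF1 differed by 0.24 (SE 0.10, adjusted p = 0.375), with 32.3 and 42.9 on the AGS arrays and 2132 and 2227 on the HGC-27 ones. In the 6-array fit DKK1 passed without the AGS MIST1 array and in no other setting tried.

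Over the 39 members the difference of MIST1 from the GFP control ran from -0.24 to 0.24 with a median of -0.0069, beside -0.017 for all genes. In HGC-27, 8 members had exceeded parental cells by at least 1.5-fold in the GFP control. Of these, FZD7, CDK14, WNT5A and DKK1 differed from that control with MIST1 by 0.082, -0.067, 0.17 and 0.19. APCDD1, SP5, RNF43 and DKK3 differed by -0.086, -0.22, -0.35 and -0.50.

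MIST1 cells were also set against parental cells. This shares the parental arrays with the comparison above, so the 2 are not independent. CDK14 rose by 1.43 (SE 0.14, limma adjusted p = 0.0368), FZD7 by 1.17 (SE 0.11, adjusted p = 0.0368) and WNT5A by 1.12 (SE 0.15, adjusted p = 0.0385). These 3 members, against 2.13% of all genes called upward, were called with no floor and after quantile normalization too, and 0 members were called with a higher floor, no filter, no variance trend, the mean of all probe sets or no block for cell line. LEF1 differed by 0.77 (SE 0.16, adjusted p = 0.057). Leaving out 1 array gave 3 to 17 calls, among them 17 when the parental array of AGS was the one removed, 11 for that of HGC-27, and 5 for the GFP control or the MIST1 array of AGS. These 4 fits called 39.4%, 38.3%, 5.85% and 3.30% of all genes.

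A list of 77 other Wnt genes was read beside the members, of which 72 were on the array and 48 were tested. In GFP control against parental cells and in MIST1 against the GFP control 0 of the 48 passed in limma, with 12 and 0 at an unadjusted p under 0.05, where 23.0% and 1.32% of all genes were. In MIST1 against parental cells 2 rose and 0 fell: EPHB3, a receptor tyrosine kinase of the crypt, by 1.17 (SE 0.18, adjusted p = 0.0419), and CD44, an adhesion receptor, by 0.91 (SE 0.17, adjusted p = 0.0467), beside 2.13% of all genes. Between the lines 17 were higher in HGC-27 and 18 lower, beside 27.3% and 33.2% of all genes. Both counts include genes that passed the filter through 1 line only, among them SFRP4, TBX3 and SOX9. Their line differences were set in part by that filter and are given with no test. SFRP4, a secreted Frizzled decoy, was higher by 6.35 and TBX3, a T-box factor, by 5.2. SOX9, a progenitor factor of the gut, was lower with a difference of -6.55. The Notch ligand JAG1, above the filter limit in both lines, was lower with a difference of -2.56 (SE 0.10).

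In the test of the line difference in the response, 4 of these 48 genes had the more positive change in HGC-27 and 2 the more negative one, beside 7.53% and 2.62% of all genes. SFRP4 read 721, 3928 and 3654 in the parental, GFP control and MIST1 arrays of HGC-27 and 23.3, 21.9 and 37.1 in AGS, a difference of 2.10 (SE 0.40, limma adjusted p = 0.0334). MYC read 5053, 4758 and 5199 in HGC-27 and 3366, 1582 and 1794 in AGS, a difference of 0.98 (SE 0.13, adjusted p = 0.0182), with lower values in the transfected AGS arrays. CSNK1E, a casein kinase acting on Dishevelled, differed by 0.74 (SE 0.13) and the co-repressor TLE1 by 0.41 (SE 0.09). More negative in HGC-27 were the Wnt co-receptor PTK7 at -0.67 (SE 0.12) and the co-repressor TLE4 at -0.62 (SE 0.14).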

How the data were processed

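The authors deposited 1 intensity per probe set and array, read here as linear scale from its range of 0.48 to 19070.49. The series design text names dChip, but not given in the sources used here are the background correction and scaling, or whether these are its model values. Genes were named from the platform annotation with symbols updated through RefSeq gene IDs. The members, their roles and all lists were chosen with earlier results of these data known. Values were floored at 17.6, the 25th percentile, taken to log2, and kept where at least 2 arrays exceeded the overall median, 50.53. limma 3.58.1 in R 4.3.3 (lmFit, eBayes with a trend) was fitted to all 6 arrays with cell line and condition, leaving 2 residual and 4.46 prior degrees of freedom. The response test used line, transfection and their interaction. The 2 lines are the only replicates of a condition. The pairing by line comes from the labels. The functions were tested on simulated data. Values on every array are given for members called in a comparison or in its 4-array fit, for those at least 1.5-fold in both lines, and for the 10 of largest line difference; members with low p in the 4-array fit were added after seeing values.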

Additional observations from a re-analysis of the deposited data

Results flagged for a closer look

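For 6 members the change from parental to transfected cells differed between the lines in a test of the interaction, as HGC-27 minus AGS on the log2 scale. It was 1.96 for DKK1, 1.69 for APCDD1, 1.2 for SP5, 0.60 for LGR4, 1.94 for DKK3 and 0.44 for TCF7L2. DKK3 passed the filter only through the transfected arrays of HGC-27, which favoured a positive value, so its calls are not read as a test. Each value rests on 1 parental array per line, and 0 of the 6, as 0 of all 13738 genes, were called when any transfected array was left out. Only DKK1 and APCDD1 were called among the members without the variance trend, without a filter, or with a floor at the median. Those settings called 1.74%, 3.25% and 0.844% of all genes, in that order, beside 10.1% with the main settings. Scaling to the median of the hybridization controls kept DKK1, APCDD1, SP5 and DKK3, and called 4.86% of all genes.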

How the results depend on the processing

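The member counts between conditions depended on the settings. For GFP control against parental the 2 calls became 0 with no filter, no floor or a floor at the median, with the mean of all probe sets, without a variance trend and with no replicate block, and 6 with only the 4 arrays compared. They also became 6 with both transfected conditions together, a setting added after seeing the data that called CDK14, FZD7, WNT5A, DKK1, LEF1 and NKD1 and 17.0% of all genes. Leaving out 1 array gave 2 to 17. For MIST1 against parental the 3 calls became 0 with no filter or a floor at the median, with the mean of all probe sets, without a variance trend and with no replicate block, and 5 with only the 4 arrays compared; leaving out 1 array gave 3 to 17, with the highest counts in both comparisons without the AGS parental array. MIST1 against the GFP control gave 0, or 1 without the AGS MIST1 array. The 6 calls of the response test became 2 with no filter, a floor at the median and without a variance trend, and 0 to 0 over the arrays left out; it could not be fitted without a parental array. The count of 27 between the lines was 27 to 30 over the arrays left out and 25 to 30 in all settings tried, not always of the same genes: without a GFP control or MIST1 array DVL3 was lost and LGR4 called. The count of 3 members at 1.5-fold in both lines was 6 at a limit of 1.2-fold. The shares of all genes called moved with the settings too. With only the 4 arrays compared, 6.63% were called in GFP control against parental and 6.02% in MIST1 against parental. The main settings called 0.247% and 3.30% there. Between the lines the main settings called 60.4% of all genes and the fit with no filter 35.4%. The cause of these moves was not tested.

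Over single members, 3 values reversed, each without 1 HGC-27 array: DKK3, GFP control against parental, was -0.32 without the HGC-27 parental array and -0.063 without the HGC-27 GFP control (range -0.32 to 1.62), and APCDD1, MIST1 against parental, was -0.022 without the HGC-27 parental array (range -0.022 to 1.67). Of all genes, GFP control against parental called 34, and between 0 and 5370 over the settings. The number of arrays limits the precision, and probe sets of 1 gene can disagree.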
